A study of Mus musculus with 8 samples.

Results

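Hyaluronan is a very long sugar polymer of the extracellular matrix. It is made at the cell surface by the hyaluronan synthases, is held in the matrix and on cells by proteins that bind it, and is cut by hyaluronidases before lysosomal enzymes break the fragments down. In the heart, fibroblasts are a main source of it, and it is known for its part in heart valve formation, in wound repair and in inflammation. The expression of 8 genes of this system was read in sorted cardiac fibroblasts of WT mice and of mice with a deletion of *Lmna*, which encodes lamin A/C of the nuclear envelope. The genes were chosen by symbol. They were the synthases *Has1*, *Has2* and *Has3*, the binding proteins *Vcan* (versican, a large matrix proteoglycan), *Cd44* (the main hyaluronan receptor of cells) and *Tnfaip6* (TSG-6, a secreted protein that transfers heavy chains onto hyaluronan), and the hyaluronidases *Hyal1* and *Hyal2*. All 8 are protein coding and are among the 18957 genes of the count files. Positions below are in mm10, from GENCODE M21.

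RNA came from live, lineage-negative PDGFRA+ cells sorted from mouse ventricles, with 4 mice of the genotype *Pdgfra-Cre:Lmna*F/F and 4 WT mice, each aged 3 to 4 weeks, of a mixed C57BL/6 strain, with 1 library per mouse. The *Pdgfra-Cre:Lmna*F/F mice, called LMNA-deficient below, carried floxed exon 2 of *Lmna* on both alleles and a BAC transgene in which *Pdgfra* drives Cre, while the WT were littermates with wild-type alleles only, so that effects of the Cre transgene and of the deletion cannot be told apart. *Pdgfra* is also active in other mesenchymal tissues and in some myocytes of the embryonic heart, where the deletion then occurs too. The deposited values were whole-number counts per gene, with totals of 2080555 to 12502949 per library and the lowest in WT replicate 2. They are given here as CPM, counts scaled to the depth of each library with TMM factors, and a gene was called changed at a Benjamini-Hochberg adjusted p under 0.05 in the quasi-likelihood test of edgeR across 13036 genes.

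*Lmna* itself was 365 ± 88.4 CPM (SD, n = 4) in WT and 111 ± 19.998 CPM (SD, n = 4) in LMNA-deficient libraries, and it fell at a log2 fold change of -1.72 (standard error 0.22, 95% interval -2.20 to -1.24, edgeR adjusted p = 0.00492). The defining fibroblast marker *Pdgfra* was present in every library, at 1275 to 2761 CPM. LMNA-deficient replicate 4 stood apart. Its 6 cardiac myocyte markers summed to 5345 CPM against 263 to 961 CPM in the other libraries, and its 7 leukocyte markers to 393 CPM against 36.9 to 156 CPM. Fold changes of named genes that moved by over 1.5 times without this library or the shallow WT replicate 2 are therefore also given without them. In bulk RNA, fewer cells that express a gene and less of its RNA per cell cannot be told apart.

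All 8 genes had enough counts to be tested, with at least 13 counts in every library. None of the 8 passed the threshold in edgeR, which called 0.407% of all tested genes, none did in DESeq2, which called 2.58%, and none did in limma-voom with sample quality weights, which called 0.967%. At an unadjusted p under 0.05 there were 3 of the 8, *Tnfaip6*, which was higher, and *Hyal2* and *Vcan*, which were lower in the LMNA-deficient libraries, beside 11.9% of all tested genes. The genotypes did not overlap for 1 of the 8, *Hyal2*, beside 8.03% of all tested genes, 4.06% with each LMNA-deficient library above and 3.97% with each below the WT. By fold change 3 genes were higher and 5 lower, and the median log2 fold change of the 8 was -0.11, against 0.025 for all tested genes.

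**Figure D1:**
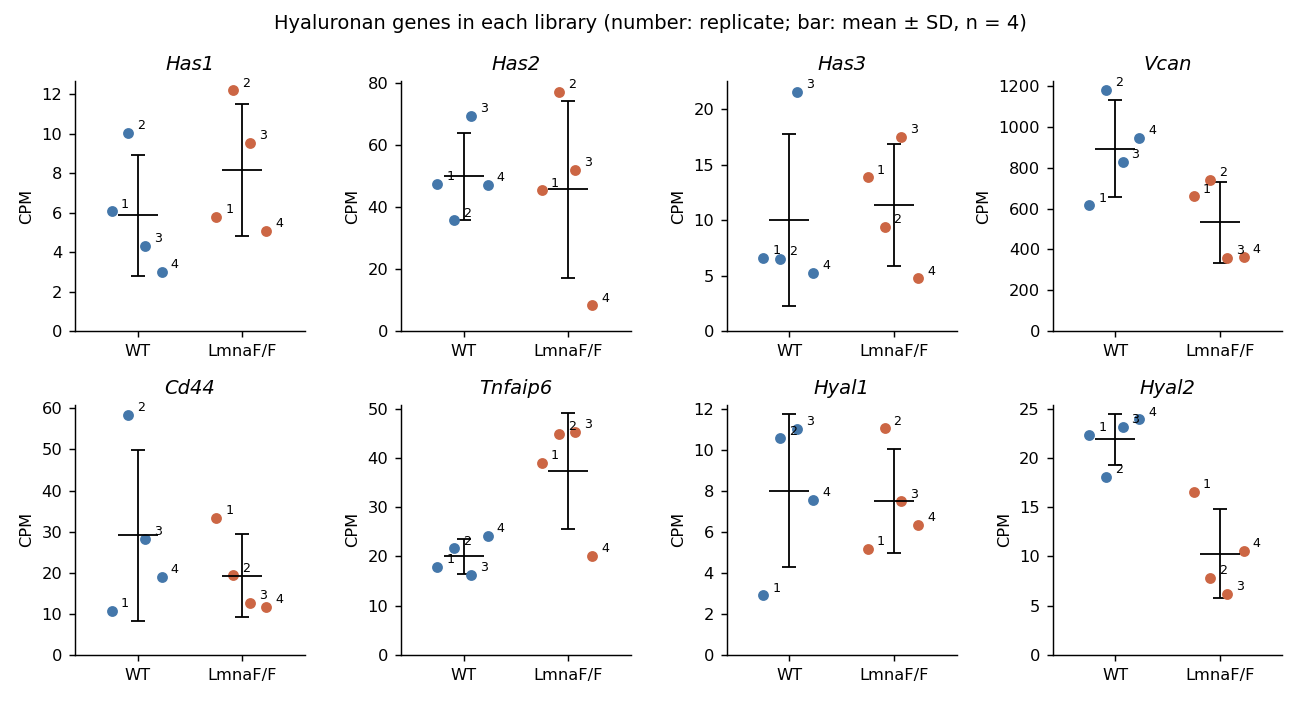
Level of each of the 8 hyaluronan genes (CPM, linear axis from 0) in the 4 WT and 4 LMNA-deficient (*Pdgfra-Cre:Lmna*F/F) libraries, with the replicate number beside each point and the mean ± SD as a bar. *Hyal2* is the gene whose groups do not overlap, *Tnfaip6* separates except for LMNA-deficient replicate 4 at 20.2 CPM, and the other genes overlap.

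The levels of different genes were compared as CPM per kb of annotated exon. In the WT, *Vcan* was the highest at 61.7 ± 16.3 CPM per kb (SD, n = 4), and each WT value of *Vcan* lay above each value of the other 7 genes. *Has2* at 11.8 ± 3.33 and *Tnfaip6* at 11.7 ± 2.07 CPM per kb came next, and their ranges overlapped. *Tnfaip6* lay above *Hyal2*, at 6.65 ± 0.788 CPM per kb, in 4 of 4 WT libraries without overlap. Below *Hyal2*, *Cd44* had 4.30 ± 3.07, *Hyal1* 2.12 ± 0.990, *Has3* 1.57 ± 1.21 and *Has1* 1.30 ± 0.679 CPM per kb, and from *Hyal2* down each gene overlapped the next.

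In the LMNA-deficient libraries the order began with *Vcan* at 36.8 ± 13.7 and *Tnfaip6* at 21.8 ± 6.90 CPM per kb (SD, n = 4), whose ranges overlapped, and *Tnfaip6* exceeded *Vcan* in 1 of the 4 libraries. *Tnfaip6* was above *Has2*, at 10.8 ± 6.72 CPM per kb, in 4 of 4 libraries, although the ranges overlapped. *Hyal2* followed with 3.13 ± 1.38, *Cd44* with 2.85 ± 1.48, *Hyal1* with 1.99 ± 0.673, *Has1* with 1.81 ± 0.738 and *Has3* with 1.78 ± 0.866 CPM per kb. All neighbours in this order overlapped.

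**Figure D2:**
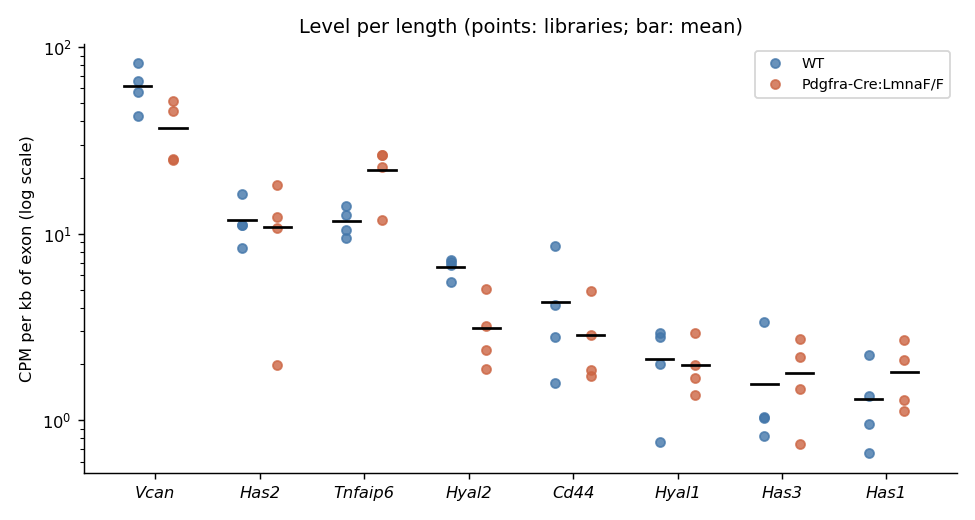
Level per length (CPM per kb of exon, log scale) of the 8 genes, ordered by the WT mean, with a point for each library and a bar for the mean of 4 libraries. *Vcan* leads in both genotypes with means of 61.7 and 36.8, and *Has1*, *Has3* and *Hyal1* lie lowest, with means near each other.

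The synthases differ in where they are used. *Has2* is the main synthase of the developing heart, while *Has1* is known for its induction in inflammation and its expression in mesothelial cells. *Has2* (ENSMUSG00000022367.7, chromosome 15 from 56665627 to 56694539, minus strand) measured 47.5, 35.7, 69.5 and 47.2 CPM across WT replicates 1 to 4. Its LMNA-deficient values, in the same order of replicates, were 45.4, 77.3, 52.04 and 8.33 CPM. LMNA-deficient replicates 1 and 3 lay within the WT range and replicate 2 above it, while replicate 4, with 100 counts, lay below every other library. Between genotypes the log2 fold change was -0.14 (standard error 0.45, 95% interval -1.10 to 0.83, edgeR adjusted p = 0.949). It was 0.21 without LMNA-deficient replicate 4 and 0.064 without WT replicate 3. The interval covers differences up to 2.15-fold lower and 1.78-fold higher. An antisense gene, *Has2os*, overlaps 182 of the 4237 exonic bases of *Has2*, and the strand setting of the counting is not given in the sources used here.

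*Has1* (ENSMUSG00000003665.7, chromosome 17 from 17843323 to 17855205, minus strand) was low, with 65, 20, 27 and 29 counts in WT replicates 1 to 4 and 56, 117, 83 and 61 counts in the LMNA-deficient replicates. As CPM these were 6.07, 10.1, 4.31 and 3.003 in the WT and 5.79, 12.2, 9.56 and 5.08 in the LMNA-deficient libraries, and the groups overlapped. Its log2 fold change was 0.51 (standard error 0.63, 95% interval -0.83 to 1.84, edgeR adjusted p = 0.832) and lay between 0.24 and 0.87 in the fits that each lacked 1 library. Mesothelial cells are a known source of *Has1*. The 6 mesothelial markers were all tested, none was called, and their sum was 11.02 to 45.8 CPM in the WT and 6.67 to 15.7 CPM in the LMNA-deficient libraries. All 6 had a negative fold change, with a median on the log2 scale of -1.05, while that of *Has1* was positive. Of the 6 markers, 5 had no count in some library, so their fold changes rest on few counts and are uncertain. Without WT replicate 2, 4 of the 6 were negative and the median was -0.59. WT replicate 2 was the highest WT library for both, with 10.1 CPM of *Has1* and 45.8 CPM of the markers. LMNA-deficient replicate 2 had the most *Has1* of all 8 libraries, 12.2 CPM, and the lowest marker sum, 6.67 CPM. *Msln* was between 0 and 8.55 CPM over the 8 libraries. The part of such cells in the *Has1* values was not tested.

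*Has3* (ENSMUSG00000031910.14, chromosome 8 from 106870242 to 106884566, plus strand) measured 6.63, 6.54, 21.6 and 5.28 CPM in the WT. The LMNA-deficient libraries had 13.9, 9.38, 17.5 and 4.75 CPM of it. WT replicate 3 lay far above the other WT libraries, and 3 of the 4 LMNA-deficient values fell inside the WT range, with replicate 4 just below it. The log2 fold change was 0.18 (standard error 0.57, 95% interval -1.05 to 1.40, edgeR adjusted p = 0.948), and it was 0.89 without WT replicate 3, -0.041 without WT replicate 4 and -0.11 without LMNA-deficient replicate 3. *Has3* rested on 13 counts in WT replicate 2, where counting alone gives an error of 27.7%. The opposite strand gene *Chtf8* overlaps 352 of the 6380 exonic bases of *Has3*.

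Of the summed synthase level per length, *Has2* held 72.2% to 88.2% in the WT libraries and 75.6, 81.4, 71.7 and 51.3% in LMNA-deficient replicates 1 to 4. It was the largest of the 3 shares in each of the 8 libraries. *Has1* held 4.60% to 19.1% in the WT and 9.05% to 29.3% in the LMNA-deficient libraries, and *Has3* 6.55% to 16.3% and 6.56% to 19.4%. All 3 shares overlapped between the genotypes. The summed synthase level was 3.84 CPM per kb in LMNA-deficient replicate 4 and 11.7 to 22.4 CPM per kb in the other 7 libraries.

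**Figure D3:**
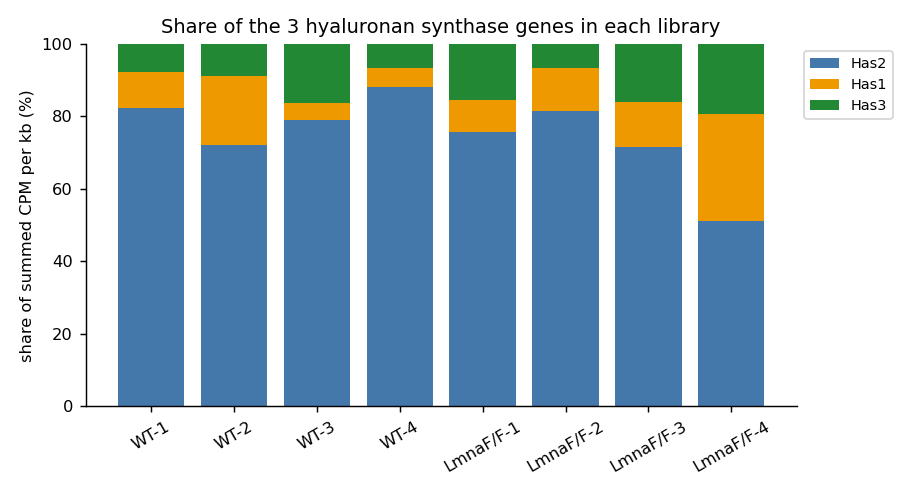
Share of *Has2*, *Has1* and *Has3* in the summed synthase CPM per kb (%) of each library, as stacked bars from 0 to 100%. *Has2* is the largest part of every bar and is smallest in LMNA-deficient replicate 4, at 51.3%.

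Among the binding proteins, *Tnfaip6* (ENSMUSG00000053475.5, chromosome 2 from 52038009 to 52056686, plus strand) had the lowest p of the 8 genes. Its WT values were 17.9, 21.6, 16.3 and 24.1 CPM, from replicate 1 to replicate 4, and its LMNA-deficient values 38.997, 44.9, 45.2 and 20.2 CPM. The first 3 LMNA-deficient values exceeded all WT values, while replicate 4 lay between WT values. The mean was 19.9995 ± 3.54 CPM (SD, n = 4) for WT and 37.3 ± 11.8 CPM (SD, n = 4) for LMNA-deficient mice, and the log2 fold change was 0.90 (standard error 0.31, 95% interval 0.24 to 1.56, edgeR adjusted p = 0.240), a 1.87-fold higher level that did not pass the threshold. Without LMNA-deficient replicate 4 the log2 fold change was 1.11 with an edgeR adjusted p of 0.117, the lowest of the 8 fits that each left out a library, where the highest was 0.450.

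*Tnfaip6* is known as a gene that inflammatory stimuli induce rapidly, and tissue dissociation can induce such genes. A list of 15 genes of the dissociation response, among them *Fos*, *Atf3* and *Egr1*, summed to 2109 to 5432 CPM in the WT and 7747 to 12954 CPM in the LMNA-deficient libraries, without overlap. Of the 15 tested, 3 were called higher (*Ier3*, *Nr4a1* and *Btg2*) and none lower, beside 0.169% and 0.238% of all tested genes. In 11 of the 15 each LMNA-deficient library lay above each WT library, beside 4.06% of all tested genes, 14 had a positive fold change and the median log2 fold change was 1.47. With 1 library left out the median stayed between 1.34 and 1.61 and at least 14 were positive, while the number called was 0 without WT replicate 1, WT replicate 4 or LMNA-deficient replicate 3, 1 without LMNA-deficient replicate 2, 5 without LMNA-deficient replicate 4 and 6 without WT replicate 3. LMNA-deficient replicate 4, with a *Tnfaip6* level in the WT range, had 8195 CPM of the list, which is above all WT libraries. The part of the isolation in the values of *Tnfaip6* and of the other 7 genes was not tested. After the genotype means were subtracted from log2 CPM, the genes most like *Tnfaip6* over the 8 libraries among 13035 others were *Ddx11* (Pearson r = 0.991, Spearman rho = 0.976), *Ch25h* (r = 0.980, rho = 0.929) and *Mast4* (r = 0.971, rho = 0.905). They were chosen for this likeness, so it carries no test. *Ddx11* and *Ch25h* were low, with means of 4.81 and 8.60 CPM and lowest counts of 5 and 1. Between genotypes the fold change was negative for *Ddx11* and *Mast4*, opposite to *Tnfaip6*, and positive for *Ch25h*, the only one of them called. Without WT replicate 3 and LMNA-deficient replicate 4, the libraries farthest from the median of *Tnfaip6*, r was 0.939, 0.888 and 0.836 in the same order.

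*Vcan* (ENSMUSG00000021614.16, chromosome 13 from 89655312 to 89742509, minus strand) stood at 616, 1181, 827 and 946 CPM in the WT and at 661, 741, 360.1 and 365 CPM in the LMNA-deficient replicates. LMNA-deficient replicates 3 and 4 lay below all WT values, and replicates 1 and 2 lay above WT replicate 1, so the groups overlapped. The mean was 893 ± 236 CPM (SD, n = 4) for WT and 532 ± 198 CPM (SD, n = 4) for LMNA-deficient mice. These gave a log2 fold change of -0.75 (standard error 0.28, 95% interval -1.34 to -0.15, edgeR adjusted p = 0.298), a 1.68-fold lower level. It was -0.58 without WT replicate 2, the shallow library in which *Vcan* was highest, and -0.44 without that library and LMNA-deficient replicate 4. With at least 2348 counts in each library, counting error was at most 2.06%, while the SD between libraries was 26.4% of the mean in the WT and 37.2% in the LMNA-deficient libraries.

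*Cd44* (ENSMUSG00000005087.17, chromosome 2 from 102811141 to 102901665, minus strand) was at 10.7, 58.4, 28.3 and 19.1 CPM in the WT and 33.4, 19.4, 12.7 and 11.7 CPM in the LMNA-deficient replicates. WT replicate 2 was the highest of the 8 libraries and WT replicate 1 the lowest. The log2 fold change was -0.56 (standard error 0.48, 95% interval -1.58 to 0.46, edgeR adjusted p = 0.726), and it was -0.00035 without WT replicate 2 and 0.18 without that library and LMNA-deficient replicate 4. Leukocytes are a known source of *Cd44*, and the sort left out cells with hematopoietic lineage markers. Of the 7 leukocyte markers 5 were tested and none was called. Of these 5, 4 had a positive fold change, and 2 of 5 had one without LMNA-deficient replicate 4. The 7 summed to 36.9 to 156 CPM in the WT and 43.9 to 393 CPM in the LMNA-deficient libraries. *Csf1r*, a macrophage receptor, had the lowest p of the 5, at a log2 fold change of 1.57 and an edgeR adjusted p of 0.213. For the pan-leukocyte gene *Ptprc* it was -0.046 (edgeR adjusted p = 0.992), and -1.24 without LMNA-deficient replicate 4, with 0 to 12.9 CPM over the 8 libraries. LMNA-deficient replicate 4 had the most leukocyte marker RNA and the least *Cd44* of its group. *Lyz2* alone made up 282 of its 393 CPM, and 134 of the 156 CPM in WT replicate 3. *Csf1r* was also highest in LMNA-deficient replicate 4, at 44.7 CPM. The part of leukocytes in the *Cd44* values was not tested.

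Of the hyaluronidases, *Hyal2*, which is bound to the cell surface and starts the cleavage of long chains, had the largest fold change of the 8 genes. *Hyal2* (ENSMUSG00000010047.12, chromosome 9 from 107567945 to 107572779, plus strand) was 22.3, 18.1, 23.2 and 23.9 CPM in the WT, replicates 1 to 4. In the LMNA-deficient replicates it was 16.6, 7.82, 6.22 and 10.6 CPM. Each LMNA-deficient value lay below each WT value, as 3.97% of all tested genes did. The mean was 21.9 ± 2.59 CPM (SD, n = 4) for WT and 10.3 ± 4.54 CPM (SD, n = 4) for LMNA-deficient mice. On the log2 scale the difference was -1.09 (standard error 0.39, 95% interval -1.92 to -0.27, edgeR adjusted p = 0.264), a 2.13-fold lower level that did not pass the threshold. It stayed negative with each library left out, at -1.42 to -0.91, and with adjusted p of 0.137 to 0.520 from edgeR in these fits. The counts behind it were 239, 36, 145 and 231 in the WT and 160, 75, 54 and 127 in the LMNA-deficient libraries, and no annotated gene on the same strand overlaps *Hyal2*.

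*Hyal1*, a lysosomal hyaluronidase, begins 4148 bases downstream of *Hyal2* on the same strand (ENSMUSG00000010051.15, chromosome 9 from 107576927 to 107581710, plus strand). WT replicates held 2.90, 10.6, 11.02 and 7.56 CPM and LMNA-deficient replicates 5.17, 11.1, 7.48 and 6.33 CPM, and the groups overlapped. The log2 fold change was -0.079 (standard error 0.59, 95% interval -1.34 to 1.18, edgeR adjusted p = 0.976). Its sign turned when single libraries were left out, to 0.073 without WT replicate 2, 0.13 without WT replicate 3 and 0.063 without LMNA-deficient replicate 1. Its annotated exons share 1961 of 3777 bases (51.9%) with *Naa80* and *Hyal3* on the same strand, where the counting may leave reads out or split them, so that the level of *Hyal1* is uncertain. *Hyal2* made up 66.3% to 89.8% of the summed *Hyal1* and *Hyal2* level per length in the WT and 44.8% to 78.6% in the LMNA-deficient libraries.

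The sum of *Hyal1* and *Hyal2* was 7.55 to 9.95 CPM per kb in the WT and 3.87 to 6.40 CPM per kb in the LMNA-deficient libraries, without overlap. *Hyal2* by itself was also without overlap, as given above, while *Hyal1*, whose level is uncertain, overlapped between the genotypes. The ratio of the summed synthase to the summed hyaluronidase level per length was 1.80, 1.41, 2.08 and 1.36 in WT replicates 1 to 4 and 2.22, 4.23, 4.43 and 0.784 in LMNA-deficient replicates 1 to 4. The ratio was above all WT values in LMNA-deficient replicates 1 to 3 and below all of them in replicate 4. These sums and ratios are descriptions, with no test, and they hold RNA levels and no measure of enzyme activity or of hyaluronan itself.

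The libraries of a genotype differed more for some of the genes than for others. The SD of log2 CPM within genotypes was 1.03 for *Has2*, 0.87 for *Cd44* and 0.85 for *Has3*, against a median of 0.49 over all tested genes. *Tnfaip6* with 0.43, *Hyal2* with 0.44 and *Vcan* with 0.48 lay below that median, and *Has1* and *Hyal1* had 0.65 and 0.69. LMNA-deficient replicate 4 had the lowest value of its group for 5 of the 8 genes (the 3 synthases, *Cd44* and *Tnfaip6*) and the highest for none. LMNA-deficient replicate 2 had the highest value of its group for 4 of them (*Has1*, *Has2*, *Vcan* and *Hyal1*) and the lowest for none.

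Other genes of hyaluronan metabolism were read in 4 lists, and edgeR called none of their 29 tested genes in either direction, beside 0.169% of all tested genes called higher and 0.238% called lower. At an unadjusted p under 0.05 in edgeR there were 3 of the 29, beside 11.9% of all tested genes. DESeq2, which gave an adjusted p for 23 of the 29, called 1, *Adamts1*, beside 2.58% of all genes. Limma-voom with sample quality weights also called only *Adamts1*, beside 0.967% of all tested genes. The first list holds 7 enzymes that make the UDP-sugars from which hyaluronan is built, and 6 of them were tested, with a median log2 fold change of -0.16. *Pgm3*, which isomerizes N-acetylglucosamine phosphate, had 17.9, 30.2, 24.6 and 17.7 CPM in the WT and 37.2, 42.6, 36.7 and 38.999 CPM in the LMNA-deficient libraries. Each LMNA-deficient value lay above each WT value, as for 4.06% of all tested genes, and its log2 fold change was 0.80 (edgeR adjusted p = 0.227). The log2 fold changes were -0.36 (edgeR adjusted p = 0.594) for *Uap1*, the enzyme after it in that pathway, and -0.31 (edgeR adjusted p = 0.632) for *Gfpt2*, which makes glucosamine phosphate.

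Of 20 further binding partners and receptors 10 had enough counts to be tested, and their median log2 fold change was -0.14. The lowest p were those of *Itih2*, a heavy chain that TSG-6 transfers onto hyaluronan, at a log2 fold change of 1.20 with an adjusted p of 0.526 from edgeR, the link protein gene *Hapln3* with -2.62 (edgeR adjusted p = 0.539), and *Ptx3*, a pentraxin that cross-links hyaluronan through these heavy chains, with 1.01 (edgeR adjusted p = 0.542). *Hapln3* had no count in 1 library of each genotype. Its log2 fold change was -1.71 without WT replicate 3, -3.24 without LMNA-deficient replicate 4, -3.63 without WT replicate 2 and LMNA-deficient replicate 4, and -1.30 in limma-voom with sample quality weights. That of *Ptx3* was 1.71 without WT replicate 3. Of 10 genes of breakdown 6 were tested, with a median of 0.35. *Hexa*, a lysosomal hexosaminidase subunit, had 97.8, 124, 199 and 117 CPM in the WT and 67.1, 98.96, 54.2 and 95.7 CPM in the LMNA-deficient libraries. Its groups overlapped, and its log2 fold change was -0.77 (edgeR adjusted p = 0.238). For *Cemip2*, a cell surface hyaluronidase, it was 0.55 (edgeR adjusted p = 0.598), and for *Gusb*, a lysosomal glucuronidase, 0.27 (edgeR adjusted p = 0.756).

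All 7 proteases known to cut versican were tested, with a median log2 fold change of 0.40. *Adamts1* had the lowest p of the 4 lists. WT replicates had 192, 216, 244 and 202 CPM and LMNA-deficient replicates 315, 371, 539 and 349.6 CPM, so that each LMNA-deficient library lay above each WT library, as for 4.06% of all tested genes. Its log2 fold change was 0.88 (edgeR adjusted p = 0.0987), a 1.84-fold higher level. The call depended on the setting, since the adjusted p was 0.00342 in DESeq2, 0.0322 in limma-voom with sample quality weights and 0.0321 in edgeR with no filter on low counts, within a range of 0.00204 to 0.133 over the 9 alternative settings with all libraries. For *Adamts4* the log2 fold change was -0.52 (edgeR adjusted p = 0.685), and for *Adamts20* 0.99 (edgeR adjusted p = 0.784). Without WT replicate 2 that of *Adamts20* was 1.82, and with 1 RUVr factor, an estimate of unwanted variation from residuals, it was 2.05. *Adamts1* is also known as a gene that stress and inflammation induce, and the dissociation list that was higher in each LMNA-deficient library is given above. Its part in the *Adamts1* values was not tested.

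**Figure D4:**
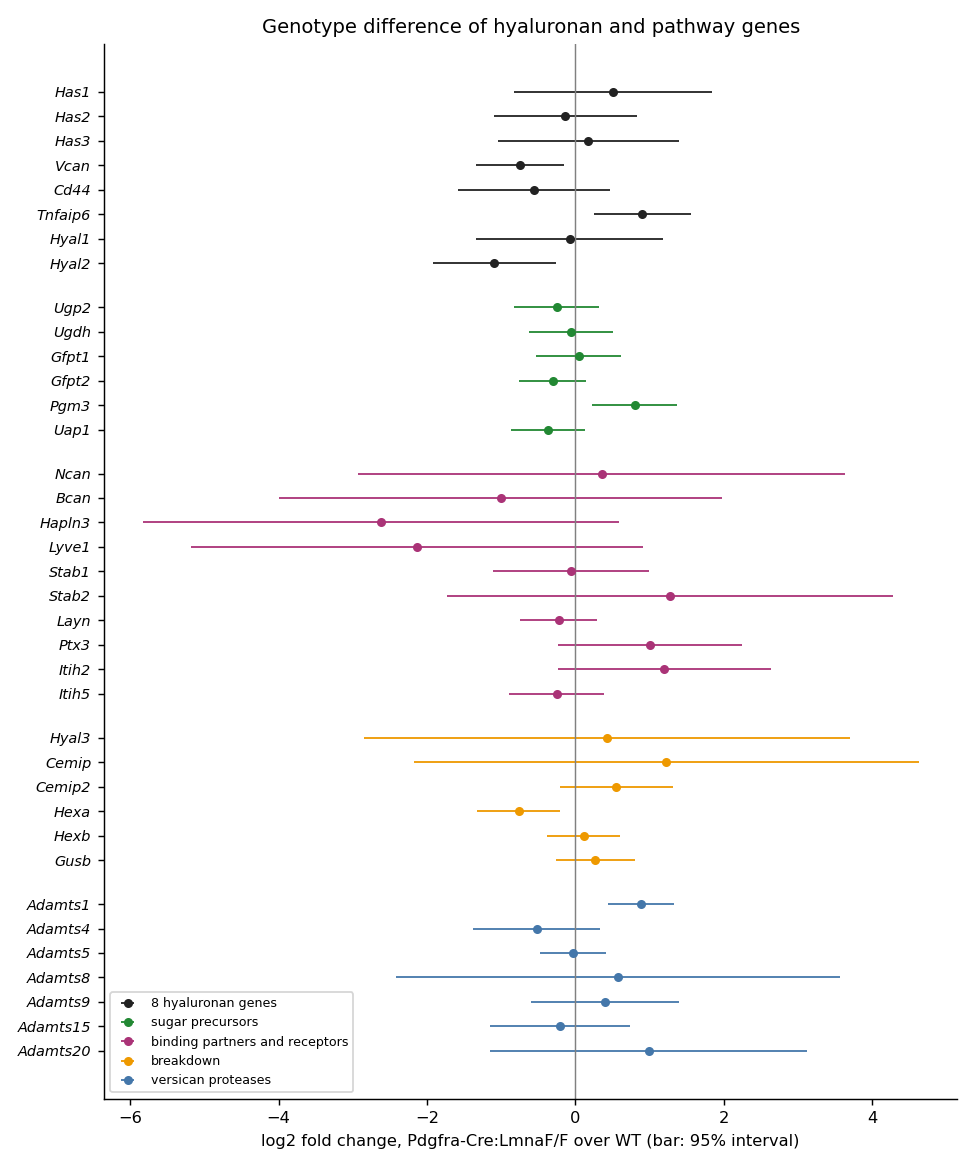
Log2 fold change (LMNA-deficient over WT) of the 8 hyaluronan genes and of the 29 tested genes of the 4 lists, with 95% intervals from edgeR. The intervals of *Tnfaip6*, *Vcan* and *Hyal2* among the 8, and of *Pgm3*, *Hexa* and *Adamts1* in the lists, leave out 0, and none of the 37 genes passed the threshold in this edgeR fit after adjustment over 13036 genes.

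Summed markers of fibroblasts and of the vessel cells that the gate could hold overlapped between the genotypes. The 8 mesenchymal markers summed to 48869 to 56433 CPM in the WT and 42216 to 58684 CPM in the LMNA-deficient libraries, the 6 endothelial markers to 175 to 265 and 97.4 to 211 CPM, and the 6 mural markers to 229.7 to 392 and 203 to 386 CPM. None of these markers was called or at 0 in any library, and the endothelial gene *Cdh5* was the only 1 of their 20 markers whose groups did not overlap, with each LMNA-deficient value below each WT value, beside 3.97% of all tested genes in that direction and 8.03% in either. *Pecam1* was 17.5 to 68.2 CPM and the mural gene *Rgs5* 59.1 to 204 CPM over the 8 libraries. *Tnnt2*, a defining gene of cardiac myocytes, was 10.2 to 62.9 CPM in 7 libraries and 429 CPM in LMNA-deficient replicate 4, the library with the lowest *Has2*. The log2 fold change of *Has2* without this library is given above, and the part of myocyte RNA in the values of *Has2* was not tested.

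**Figure D5:**
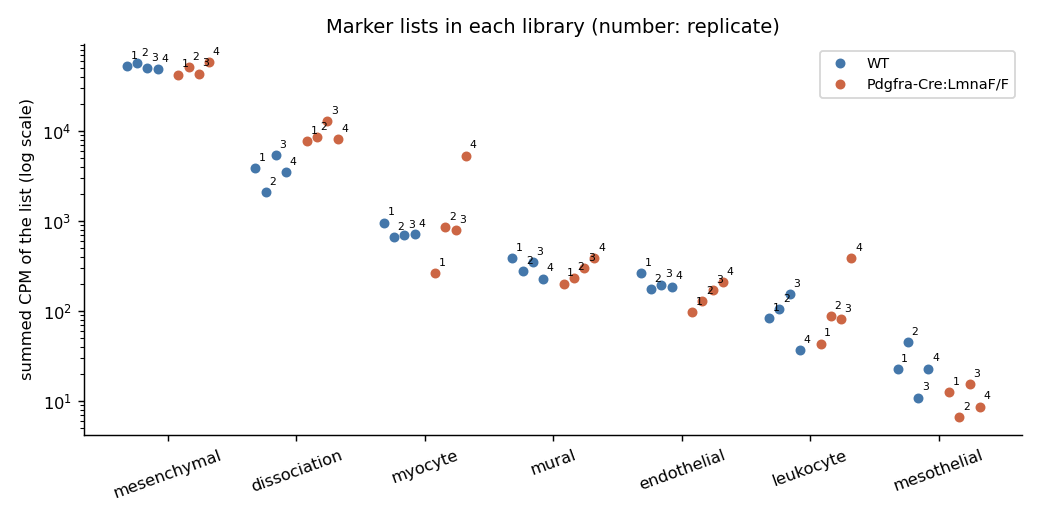
Summed CPM (log scale) of each marker list in each library, with the replicate number beside each point. The dissociation list is higher in the 4 LMNA-deficient libraries than in the 4 WT libraries, and LMNA-deficient replicate 4 stands above the others for the myocyte list, at 5345 CPM, and the leukocyte list, at 393 CPM.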

How the data were processed

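The analysis covered RNA of sorted PDGFRA+ cells from 4 WT and 4 LMNA-deficient (*Pdgfra-Cre:Lmna*F/F) mice, 1 library per mouse, with the genotype and replicate number taken from the labels. The authors depleted ribosomal RNA, made strand-specific libraries, aligned 150 bp paired-end reads to mm10 with HISAT2, counted them with featureCounts on GENCODE genes and deposited whole-number counts per gene. Their methods name RUV normalization beside the counting. The totals of the deposited counts are unequal, and whether RUV touched them is not given. Versions, strand settings and the GENCODE release are not given in the sources used here.

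Analysis used R 4.3.3, edgeR 4.0.16, limma 3.58.1, DESeq2 1.42.0 and Python 3.11.15. Genes were kept with filterByExpr, scaled with TMM factors and compared between genotypes, with no other term, by the edgeR quasi-likelihood test over 13036 genes, with Benjamini-Hochberg adjustment over all of them. Standard errors and 95% intervals follow from its F statistics. Exon lengths and positions came from GENCODE M21, which uses the same build as mm10. The procedure was tested on simulated counts. Total counts of 2080555 to 12502949 set the precision, and counting errors cover counting only.

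The 8 genes, the pathway and marker lists and the tests were chosen with earlier results of these data known. Besides the 8 genes, those named are *Lmna*, the 3 tested genes of each pathway list with the lowest p, defining markers, called dissociation genes and the 3 genes most like *Tnfaip6*. *Fos*, *Atf3*, *Egr1*, *Csf1r*, *Lyz2* and *Cdh5* were named after their values were seen. Alternatives were DESeq2, limma-voom with sample quality weights, RLE and upper-quartile factors, other filters, 1 RUVr factor with edgeR or DESeq2, a replicate block and leaving out libraries. RPKM-like levels were also computed on raw library totals.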

Additional observations from a re-analysis of the deposited data

Results flagged for a closer look

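In 4 groups of 4 libraries, 1 library lay so far from the others that its gap to the nearest exceeded Dixon's 95% limit, read against the range of the group. Chance gives about 5% of the 44 groups examined. *Has3* was 21.6 CPM in WT replicate 3, above the other 3 WT libraries. The myocyte markers summed to 5345 CPM and the leukocyte markers to 393 CPM in LMNA-deficient replicate 4, above the rest of its group. The dissociation genes summed to 12954 CPM in LMNA-deficient replicate 3, the library with the highest *Tnfaip6* and the lowest *Hyal2*.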

How the results depend on the processing

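None of the 8 genes passed the threshold in any of the 9 alternative settings with all libraries, where the lowest adjusted p was 0.0842 (*Vcan*, DESeq2 with 1 RUVr factor), or in any fit that left out 1 library, and 2 or 3 of the 8 were at an unadjusted p under 0.05. *Vcan* lost that level without WT replicate 2 or LMNA-deficient replicate 3. *Has1*, *Vcan*, *Tnfaip6* and *Hyal2* kept their direction in all 18 alternatives. With limma-voom and sample quality weights, which change both the tool and the weight of each library, the log2 fold change turned to 0.061 for *Cd44* and 0.17 for *Hyal1*. Without both WT replicate 2 and LMNA-deficient replicate 4, chosen after seeing the data, it turned to 0.092 for *Has2*, 0.18 for *Cd44* and 0.15 for *Hyal1*. With 1 library left out it ranged from -0.51 to 0.21 for *Has2*, -0.11 to 0.89 for *Has3* and -0.36 to 0.13 for *Hyal1*. The cause of these turns was not tested.

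Over all genes, 53 were called, 22 higher and 31 lower, and the count moved to 303 with DESeq2, 126 with limma-voom and sample quality weights, 274 with no filter, 83 with 1 RUVr factor (46 higher, 37 lower) and 455 with DESeq2 and 1 RUVr factor (242 higher, 213 lower). It was 11 to 74 with 1 library left out, namely 14, 22 and 11 without WT replicates 1, 2 and 4 and 22 and 17 without LMNA-deficient replicates 2 and 3. With the replicate block the count was 36 and *Hyal1* turned to 0.014. The deviations of same-numbered libraries correlated by -0.030, -0.027, -0.004 and 0.040, so they shared no large deviation over all genes. These values cannot show whether same-numbered mice shared a litter or a preparation, and the labels do not say. Levels per length on raw library totals stayed within 1 SD. *Adamts1* passed the threshold in 4 of the 9 settings, with DESeq2, limma-voom with quality weights, edgeR with no filter, and DESeq2 with 1 RUVr factor. Among the 8 genes, depth limits *Has1*, *Has3* and *Hyal1* most.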
